A study of Mus musculus with 365 samples.

Results

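The transcripts of 10 genes of V(D)J recombination and end joining were followed across single progenitor cells of mouse bone marrow. They were listed by name and matched by gene identifier, and all 10 of them were found among the 23427 genes of the count table: Rag1, Rag2, Dntt, Prkdc, Dclre1c, Xrcc6, Xrcc5, Xrcc4, Lig4 and Nhej1. The cells belonged to EPLM, a compartment of early progenitors that can give rise to lymphoid and to myeloid cells, sorted from the femurs of C57BL/6 mice that all carried the Flt3Ltg transgene for the cytokine Flt3 ligand. TN (triple negative) cells numbered 213, from chips 1, 2 and 3, and Ly6D+ cells numbered 152, from chips 4, 5 and 6. Each label names a mouse pool of size 2, a sorted fraction and the Fluidigm C1 capture chip. The labels give neither the age of the mice nor the promoter of the transgene, and they do not name the markers behind TN. There was no group without the transgene. The comparison asks whether transcripts of the recombination machinery differ between the fractions and in which cells they occur.

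V(D)J recombination assembles antigen receptor genes in developing lymphocytes. The RAG1 and RAG2 proteins form a recombinase that cuts DNA next to receptor gene segments and leaves hairpin-sealed coding ends. Ku, a dimer of the products of Xrcc6 (Ku70) and Xrcc5 (Ku80), then binds the ends, DNA-PKcs (Prkdc) activates the nuclease Artemis (Dclre1c) to open the hairpins, terminal transferase (Dntt) adds untemplated nucleotides, and XRCC4, DNA ligase IV (Lig4) and XLF (Nhej1) seal the joint. The recombinase and terminal transferase do this work in developing lymphocytes, whereas the end-joining factors repair breaks in most cells.

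Promoters of the 4 genes that stood apart between the fractions are shown because they fall into a CpG-poor and a CpG-rich kind. Each window runs from 140 bases before to 25 bases after the annotated transcription start (RefSeq, GRCm38.p6, on the strand of the gene), and capitals mark matches to a fixed set of motifs. The windows are chr2:101649508-101649672 (minus strand) for Rag1, chr2:101624572-101624736 (plus strand) for Rag2, chr19:41029135-41029299 (plus strand) for Dntt and chr15:82016229-82016393 (plus strand) for Xrcc6.
Rag1: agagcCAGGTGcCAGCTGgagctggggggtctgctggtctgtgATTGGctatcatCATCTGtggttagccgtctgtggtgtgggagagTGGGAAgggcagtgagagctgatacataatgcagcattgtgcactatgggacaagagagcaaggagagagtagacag
Rag2: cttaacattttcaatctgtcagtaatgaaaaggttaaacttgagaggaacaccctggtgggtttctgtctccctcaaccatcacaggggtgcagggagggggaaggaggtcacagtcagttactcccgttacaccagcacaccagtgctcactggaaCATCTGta
Dntt: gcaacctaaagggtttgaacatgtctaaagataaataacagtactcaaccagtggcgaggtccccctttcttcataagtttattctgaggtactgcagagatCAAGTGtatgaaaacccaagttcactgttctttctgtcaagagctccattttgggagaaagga
Xrcc6: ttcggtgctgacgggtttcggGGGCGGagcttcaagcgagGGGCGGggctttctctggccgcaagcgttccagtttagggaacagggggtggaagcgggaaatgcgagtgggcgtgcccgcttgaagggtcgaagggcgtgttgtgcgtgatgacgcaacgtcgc
The motifs searched on both strands were the E-box CANNTG, the CCAAT box CCAAT, the GC box GGGCGG, the TATA box TATAAA, the core letters TGGGAA (Ikaros), TGTTTAC (FOXO) and CAGGAAG (ETS), and the EBF palindrome. In Rag1 the capitals are E-boxes at -135, -128 and -85, a CCAAT box on the other strand at -97 and the Ikaros letters at -52, counted from the start site. Rag2 had an E-box at 18 and Dntt an E-box at -38, and Xrcc6 had GC boxes at -119 and -100. Among 32851 mouse promoter entries of 300 bases (250 before and 50 after the start), 72.3% hold an E-box, 37.4% a CCAAT box, 35.7% a GC box and 25.6% the Ikaros letters, so none of these matches is rare. In such 300-base entries the recombinase and terminal transferase genes held few CpG dinucleotides, with 2 in Dntt, 3 in Rag1 and 3 in Rag2. All promoters had a median of 7. The end-joining genes ranged from 9 (Xrcc5), 10 (Nhej1) and 12 (Dclre1c) to 30 in Xrcc6 and 31 in Xrcc4, and the 2 entries of Lig4 held 30 and 29. Prkdc has no entry in the table used. A letter match describes the sequence only and shows no bound factor.

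The chips held 35734620 to 61415823 gene reads each, and the median depth per cell ranged from 750934 to 1000074 reads. The marker of the sort fitted the labels, since Ly6d transcript reached the detection limit in 14.6% ± 2.3 of cells on TN chips and 95.2% ± 4.5 on Ly6D+ chips (mean ± SD of 3 chips each). Detection means 5 or more reads after each cell was thinned to 200000 reads, that is 25 CPM or more, where CPM are counts scaled to a common library size. Each chip held cells of 1 fraction only and its own run label (a chip number with a code), so chip, run and sorted fraction cannot be told apart. Fold changes and p-values below come from reads summed per chip, tested with edgeR's quasi-likelihood test across 11797 genes with Benjamini-Hochberg adjustment (adjusted p under 0.05). Of all genes tested, 0.0932% were called higher in Ly6D+ cells, and 2 of the 10 recombination and end-joining genes, Dntt and Rag2, were among them. No gene of the 10 was called lower, and 0.11% of all genes were. Chip values lay higher in Ly6D+ cells without overlap for 6 of the 10 genes (Rag1, Rag2, Dntt, Xrcc6, Xrcc5 and Lig4) and for 7.64% of all genes tested. None of the 10 was lower without overlap, as 7.75% of all genes were. At an unadjusted p under 0.05, 4 of the 10 were higher (Rag1, Rag2, Dntt and Xrcc6), against 4.27% of all genes, and 0 were lower, against 4.1%.

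**Figure D1:**
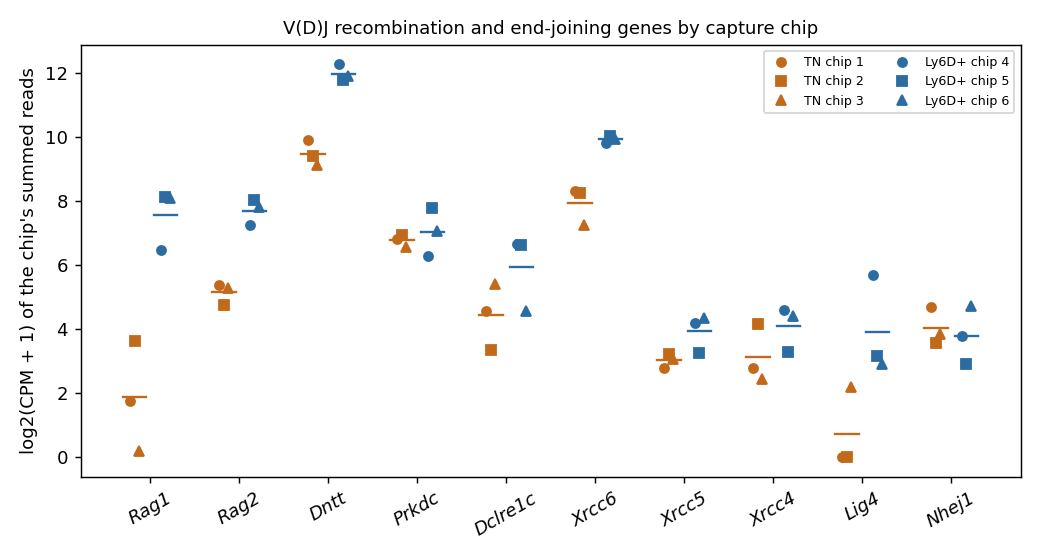
Summed expression of the 10 genes on each capture chip, as log2(CPM + 1), with TN chips in orange, Ly6D+ chips in blue and a bar at the mean of 3 chips. Rag1, Rag2, Dntt, Xrcc6, Xrcc5 and Lig4 do not overlap between fractions, Xrcc5 only narrowly and Lig4 at low levels, while the points of Prkdc, Dclre1c, Xrcc4 and Nhej1 overlap.

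Rag2, which encodes the regulatory partner in the recombinase, rose in Ly6D+ cells. Its level was 40.8, 26.1 and 37.9 CPM on the TN chips and 149.6, 258 and 222 CPM on the Ly6D+ chips. Every Ly6D+ chip stood above every TN chip, and the log2 fold change was 2.59 ± 0.34 (SE; 95% interval 1.81 to 3.36; adjusted p = 0.0396 by edgeR). The transcript was already present in a minority of TN cells, at 10.7%, 5.80% and 10.1% of cells per chip, against 30%, 31.7% and 34.6% on the Ly6D+ chips. In the cells in which Rag2 was detected, the mean log2 CPM per chip was 8.06, 7.66 and 7.53 in TN and 8.30, 8.21 and 8.30 in Ly6D+. These levels did not overlap either, but TN chip 2 rests on only 4 positive cells, and no test was made of this level. Rag2 shares its locus with Iftap, an overlapping gene, and these libraries do not mark the strand. Iftap itself was at 16.6, 39.7 and 28.7 CPM on the TN chips and 7.92, 6.08 and 7.68 CPM on the Ly6D+ chips, the opposite order to Rag2. Of the Rag2-positive cells, 15 of 19 in TN and 46 of 49 in Ly6D+ had no Iftap detected. The Rag2 call was lost when any 1 chip was left out, with adjusted p from 0.0811 to 0.172 and log2 fold changes from 2.40 to 2.78.

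Rag1, which encodes the catalytic subunit that cuts the DNA, was near absent from TN cells. It had 2.38, 11.4 and 0.146 CPM on the TN chips against 88.2, 277 and 272 CPM on the Ly6D+ chips. The chips did not overlap, but the TN values were spread widely, and the log2 fold change of 5.51 ± 1.31 (SE; 95% interval 2.52 to 8.51) missed the threshold (adjusted p = 0.206 by edgeR). A single cell supplied 70.4% of the Rag1 reads of TN chip 2. The same cell held 76.2% of that chip's reads of Ebf1, a B-lineage transcription factor, and it was the TN cell with the most Ebf1 reads. Leaving it out gave a log2 fold change of 6.74 ± 1.09 (adjusted p = 0.0767), and leaving out TN chip 2 gave 7.37 ± 1.32 (adjusted p = 0.192). Rag1 was detected in 1.33%, 2.90% and 0% of TN cells, and the 0 of 69 cells on chip 3 allows a share of up to 4.35%. On the Ly6D+ chips it was detected in 30%, 43.3% and 36.5% of cells. With DESeq2 and with limma on chip means of log2(CPM + 1), Rag1 passed (adjusted p of 1.41e-05 and 2.56e-05); over all genes these tools called 1.91% and 1.87% higher.

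Dntt, the gene of the polymerase that adds untemplated nucleotides at joints, was the most abundant of the 10 and rose in Ly6D+ cells. Levels were 967, 671 and 555 CPM on the TN chips and 4944, 3489 and 3833 CPM on the Ly6D+ chips. The groups did not overlap, and the log2 fold change was 2.48 ± 0.25 (SE; 95% interval 1.92 to 3.05; adjusted p = 0.0120 by edgeR). The difference had 2 components. Positive cells made up 29.3%, 34.8% and 27.5% of TN chips and 97.5%, 86.7% and 96.2% of Ly6D+ chips. Positive cells also held more transcript in Ly6D+, at 11.38 ± 0.29 log2 CPM against 10.24 ± 0.41 in TN (mean ± SD, n = 3 chips each). The difference of 1.14 in log2 CPM had no overlap between chips and an exact permutation p of 0.1 (two-sided), the smallest that 3 against 3 chips allow. The highest cell of each chip had 13865, 8505 and 7705 CPM on the TN chips and 16035, 14505 and 12325 CPM on the Ly6D+ chips. The Dntt call was lost without TN chip 2, Ly6D+ chip 4 or Ly6D+ chip 6 (adjusted p of 0.0723, 0.0655 and 0.0669), with log2 fold changes of 2.43, 2.33 and 2.51.

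Among the end-joining genes, Xrcc6 stood apart from the rest. This gene of the Ku70 subunit had 316, 302 and 150 CPM on the TN chips and 892, 1037 and 988 CPM on the Ly6D+ chips. The lowest Ly6D+ chip lay above the highest TN chip, and the log2 fold change was 1.93 ± 0.29 (SE; 95% interval 1.25 to 2.60), or 3.80-fold. It missed the threshold in the edgeR test (adjusted p = 0.0641; unadjusted p = 0.00015) and passed it with no low-count filter (adjusted p = 0.0353), with DESeq2 (1.02e-06) and with limma (2.02e-05). As for Dntt, more cells were positive and positive cells held more. Detection was 54.7%, 46.4% and 31.9% on the TN chips and 90%, 80% and 90.4% on the Ly6D+ chips. The level in positive cells was 8.14 ± 0.46 log2 CPM in TN and 9.33 ± 0.23 in Ly6D+, a difference of 1.19 without overlap (mean ± SD of 3 chips each; exact permutation p = 0.1). Xrcc6 overlaps Desi1, which was at 37.5, 96.7 and 47.4 CPM on the TN chips and 111.4, 36.6 and 82.3 CPM on the Ly6D+ chips, with overlapping groups. Among cells with no Desi1 read at all, a split added after the data were seen, Xrcc6 was found in 51.7%, 37.5% and 30.4% of cells on the TN chips and in 85%, 73.7% and 81.8% on the Ly6D+ chips. The chip shares did not overlap in these cells either.

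**Figure D2:**
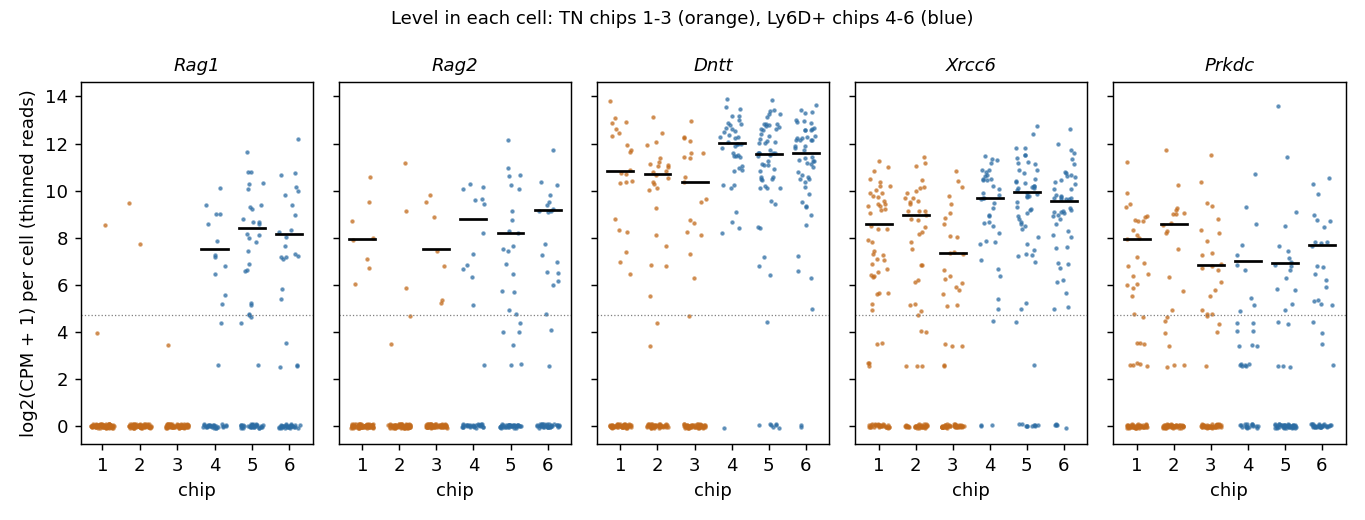
Level of 5 genes in every cell, as log2(CPM + 1) after thinning, by chip, with TN in orange and Ly6D+ in blue. Black bars are medians of the cells at or above the detection limit (dotted line), drawn only for chips with 5 or more such cells. Points at 0 are cells with no thinned read. Dntt, Xrcc6 and Rag2 have a larger share of positive cells on every Ly6D+ chip than on any TN chip. Rag1 has almost no positive TN cell to compare. The mean levels given in the text are not drawn.

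The other Ku gene, Xrcc5, had few reads in the deposited table, whose counting annotation is not given. Xrcc5 had at least 1 read in 24 cells and Xrcc6 in 253. It had 5.93, 8.39 and 7.41 CPM on the TN chips and 17.3, 8.55 and 19.5 CPM on the Ly6D+ chips. These values did not overlap, yet the lowest Ly6D+ chip and the highest TN chip were nearly equal and the log2 fold change was 1.06 ± 0.80 (SE; adjusted p = 0.800 by edgeR). The value of TN chip 3 came wholly from 1 cell, and on TN chip 2 a single cell held 98.5% of the reads. On Ly6D+ chips 4, 5 and 6 a single cell held 79.4%, 95.1% and 62.5% of them. Both Ku transcripts were detected together in 4 TN and 8 Ly6D+ cells.

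Prkdc, the gene of the DNA-PK catalytic subunit, did not separate the fractions. It was at 111.3, 122.5 and 94.3 CPM on the TN chips and 77.3, 219 and 131.3 CPM on the Ly6D+ chips. On chip 5, the highest, 1 cell at 12960 CPM held 60.1% of the Prkdc reads, and without the chip the log2 fold change turned from 0.38 to -0.07. The 95% interval of the log2 fold change, -0.51 to 1.27, leaves room for a change in either direction. Detection was 32%, 23.2% and 30.4% in TN and 25%, 26.7% and 38.5% in Ly6D+ (exact permutation p = 0.8), and positive cells averaged 7.66 ± 0.46 and 7.39 ± 0.16 log2 CPM. The highest TN cell had 3535 CPM. Prkdc has Mcm4 as its close neighbour, within 500 bases, and Mcm4 was also level between fractions, from 774 to 811 CPM on TN chips and from 659 to 849 CPM on Ly6D+ chips.

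Dclre1c, the gene of the hairpin-opening nuclease Artemis, lay higher on 2 of the 3 Ly6D+ chips. It had 22.7, 9.19 and 41.1 CPM on the TN chips and 100.2, 97.8 and 22.7 CPM on the Ly6D+ chips. Chip 6 fell within the TN range, and the log2 fold change of 1.60 ± 0.73 (SE; 95% interval -0.07 to 3.27) did not pass (adjusted p = 0.615 by edgeR). With 1 chip left out it ran from 1.21 to 2.19, the latter without TN chip 3. Detection was 12%, 4.35% and 13.04% in TN and 25%, 23.3% and 11.5% in Ly6D+ (exact permutation p = 0.3). It overlaps Suv39h2, found in 5.68% ± 1.63 of cells per TN chip and 5.90% ± 1.55 per Ly6D+ chip (mean ± SD, n = 3 each).

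The 3 genes of the ligation step were found in few cells, and none of them passed the edgeR test. Xrcc4, the scaffold of the ligase, had 5.81, 16.9 and 4.38 CPM in TN and 23.2, 8.71 and 20.02 CPM in Ly6D+ (log2 fold change 0.94 ± 0.87, SE; 1.76 without TN chip 2), with overlapping chips. Nhej1, the gene of the XLF filament protein, had 24.5, 10.8 and 13.4 CPM in TN and 12.7, 6.51 and 25.1 CPM in Ly6D+ (log2 fold change -0.14 ± 0.79, SE). Lig4, the gene of the ligase itself, had reads in 12 cells. It was at 0, 0 and 3.57 CPM on the TN chips and 50.3, 7.90 and 6.57 CPM on the Ly6D+ chips, where a single cell on chip 4 held 94.1% of that chip's reads. Lig4 was detected in 1 TN cell and 6 Ly6D+ cells, and its log2 fold change of 4.18 ± 2.34 (SE; adjusted p = 0.710 by edgeR) rests on those few cells. Without Ly6D+ chip 4 it was 2.61, and without TN chip 3 the TN group has no Lig4 read and no fold change is given. The chips without a Lig4-positive cell, 0 of 75 and 0 of 69, allow shares of up to 4% and 4.35%.

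**Figure D3:**
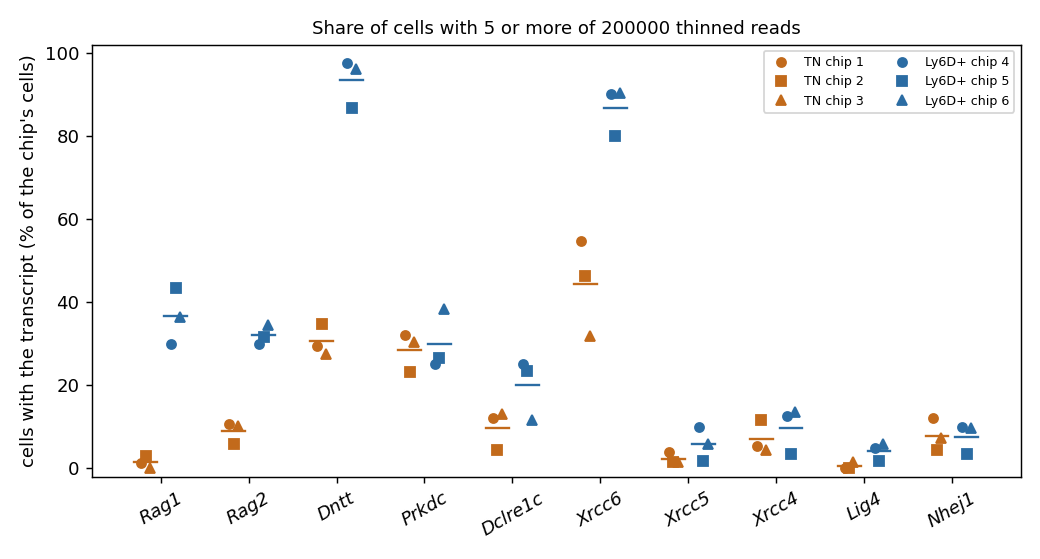
Share of cells on each chip in which each of the 10 genes was detected (5 or more of 200000 thinned reads), with TN in orange, Ly6D+ in blue and bars at the mean of 3 chips. Dntt and Xrcc6 were found in 80% or more of the cells of every Ly6D+ chip, and Rag1 and Rag2 in 30% to 43.3%.

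By the share of positive cells, 5 of the 10 genes (Rag1, Rag2, Dntt, Xrcc6 and Lig4) were higher on every Ly6D+ chip than on every TN chip, against 10.4% of all genes tested. None was lower on every Ly6D+ chip, against 5.93% of all genes. Each of these 5 had the smallest exact permutation p of the design, 0.1. For Lig4 the separation rests on 1 positive cell of 60 on Ly6D+ chip 5 (1.67%) against 1 of 69 on TN chip 3 (1.45%). Of the 7 end-joining genes, a TN cell held on average 1.20, 0.913 and 0.899 per chip and a Ly6D+ cell 1.78, 1.40 and 1.75. No cell had more than 4 of the 7 detected, and none of them was detected in 67 TN cells and 11 Ly6D+ cells.

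Compared per transcript length, Dntt and Xrcc6 led in both fractions. As TPM, which scale the chip sums by gene length, Dntt averaged 733 ± 250 in TN and 4064 ± 805 in Ly6D+, and Xrcc6 260.6 ± 106.9 and 972 ± 62.4 (SD, n = 3 chips each). In TN cells Nhej1 (36.9 ± 17.99 TPM), Rag2 (21.7 ± 4.81) and Prkdc (18.4 ± 3.52) came next, and Rag1 (1.53 ± 1.97) and Lig4 (0.566 ± 0.981) came last. Nhej1 lay above Rag2 and Prkdc on every TN chip, although its range over chips overlapped that of Rag2. Rag2 lay below Prkdc on chip 2. In Ly6D+ cells Rag2 (130.6 ± 33.1 TPM) and Rag1 (67.1 ± 33.6) had higher means than every end-joining gene except Xrcc6, although on chip 4 Rag1 (28.3 TPM) lay below Dclre1c (34.5), Xrcc4 (32.1) and Nhej1 (28.9). The order among Nhej1 (33.3 ± 21.3), Dclre1c (25.02 ± 15.03), Xrcc4 (23.7 ± 10.6), Prkdc (23.7 ± 11.6), Xrcc5 (12.5 ± 4.84) and Lig4 (11.3 ± 13.1) was not resolved beyond the spread of the chips. The relatives of Dntt in the same polymerase family were set beside it. Poll, the gene of polymerase lambda, averaged 69.9 ± 22.9 TPM in TN and 102.8 ± 28.8 in Ly6D+ with overlapping chips. Its share of positive cells did not overlap, at 14.7%, 10.1% and 14.5% in TN and 30%, 18.3% and 15.4% in Ly6D+ (exact permutation p = 0.1). Polm, the gene of polymerase mu, was detected in 2 TN and 3 Ly6D+ cells.

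Both Rag transcripts were found in the same Ly6D+ cell more often than the product of their shares. All of Rag1, Rag2 and Dntt were detected in 15%, 21.7% and 21.2% of cells on the Ly6D+ chips (30 cells in all). Both Rag transcripts were found in 17.5%, 23.3% and 21.2% of cells, where the product of the single shares would give 9%, 13.7% and 12.6%. Among Rag1-positive Ly6D+ cells, 58.3%, 53.8% and 57.9% also held Rag2, compared with 17.9%, 14.7% and 21.2% of Rag1-negative cells. The order was the same on each chip. At least 1 Rag transcript was present in 74 Ly6D+ cells, and 71 of them held Dntt. That share was 94.1%, 93.5% and 100% per chip, against 100%, 79.3% and 92.3% of Ly6D+ cells with no Rag transcript, so it lay near that of Ly6D+ cells in general. Conversely, 57.5%, 38.3% and 46.2% of Ly6D+ cells had Dntt with neither Rag transcript.

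**Figure D4:**
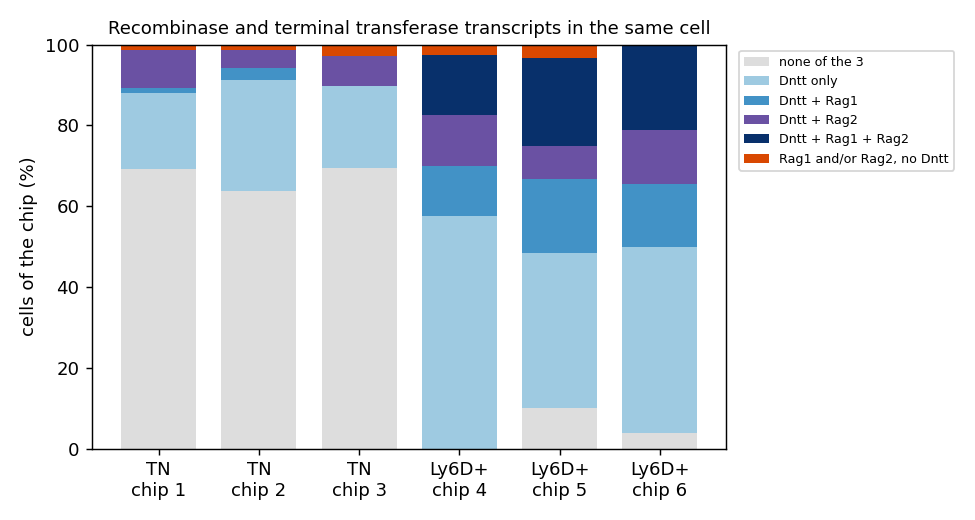
Share of each chip's cells by which of Dntt, Rag1 and Rag2 were detected together. Cells with all 3 transcripts make up 15% to 21.7% of Ly6D+ chips and are missing from the TN chips, and cells with none of the 3 make up 63.8% to 69.6% of TN chips.

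A Rag transcript was found in 22 TN cells, of which 19 held Rag2 and 3 held Rag1, and no TN cell held both (0 of 213, which allows a share of up to 1.41%). The product of the single shares over all TN cells gives 0.126%, which lies below that limit. Of these 22 cells, 18 also held Dntt. Per chip that share was 88.9%, 83.3% and 71.4%, from 9, 6 and 7 cells with a Rag transcript. In TN cells with no Rag transcript Dntt was found in 21.2%, 30.2% and 22.6%. In TN, Xrcc6 was more often found in Dntt-positive cells (72.7%, 79.2% and 52.6% per chip) than in Dntt-negative cells (47.2%, 28.9% and 24%).

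Detection of the Rag transcripts in Ly6D+ cells was compared between cells with and without Ebf1. Rag1 was detected in 55.6%, 52.4% and 66.7% of cells positive for Ebf1 and in 9.09%, 38.5% and 10.7% of cells negative for it. Rag2 lay in the same direction on each chip, with 38.9%, 47.6% and 50% against 22.7%, 23.1% and 21.4%. Across 4659 genes detected in at least 20% of Ly6D+ cells, those most like Rag1 by mean rank correlation within chips were Cd79a (0.68), Cecr2 (0.59), Foxo1 (0.54), Cd79b (0.52) and Vpreb2 (0.52), and Rag2 came seventh at 0.51. Cd79a and Cd79b encode the signalling chains of the B cell receptor, Vpreb2 a surrogate light chain and Foxo1 a transcription factor known to act on the Rag genes. Those most like Rag2 were Rag1 (0.51), Arl5c (0.50), Cd79b (0.49), Vpreb1 (0.45) and Cd79a (0.43). These are correlations over 152 cells that share chips, depth and many zeros, and they are given as descriptions.

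Dntt had other companions. In Ly6D+ cells the genes most like it were Gimap6 (0.46), Xrcc6 (0.44), Rps19 (0.41), Egfl7 (0.39) and Rps19-ps3 (0.38), the last being a pseudogene copy whose reads cannot be separated with certainty from Rps19. In TN cells they were Gimap6 (0.67), Mn1 (0.60), Il12a (0.59), Lck (0.57) and Nkg7 (0.53) among 4478 genes over 213 cells. Xrcc6 ranked 15 there, at 0.43. Taken as the starting gene, a step chosen after its values were seen, Xrcc6 had Dntt as its closest gene in TN (0.43) and as the next after Sh2d5 (0.46) in Ly6D+ (0.44). The chip values of the Dntt and Xrcc6 relation were 0.40, 0.54 and 0.33 in TN and 0.27, 0.64 and 0.42 in Ly6D+. Prkdc showed no such relation, with mean correlations to Dntt of 0.015 in TN and 0.069 in Ly6D+ and to Xrcc6 of 0.11 and -0.06.

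In Ly6D+ cells the same transcripts were lower in cells with more cell cycle genes. RAG2 protein is known to be destroyed as cells enter S phase, so cell cycle genes were set beside the 10 genes. The rank correlation with the number of G2/M genes detected (20 genes) was -0.43, -0.30 and -0.46 for Rag1 on chips 4, 5 and 6, and -0.37, -0.22 and -0.18 for Rag2. It was -0.44, -0.27 and -0.31 for Dntt and -0.49, -0.37 and -0.34 for Xrcc6, negative on each chip for all 4 genes. On TN chips the same correlations were 0.00039, -0.04 and -0.04 for Dntt and 0.10, -0.08 and 0.23 for Xrcc6. For Rag2 they were 0.15, 0.11 and 0.09, positive on each TN chip where they were negative on each Ly6D+ chip, with 8, 4 and 7 positive TN cells and no test of the difference. Prkdc had a positive correlation with the number of G1/S genes (20 genes) on every chip, at 0.22, 0.38 and 0.35 in TN and 0.07, 0.35 and 0.19 in Ly6D+. On chips 4, 5 and 6, cells with a Rag transcript had fewer genes detected than cells without one. The medians were 2646, 2226 and 2841 with one and 3014, 2688 and 2926.5 without. On TN chips 1, 2 and 3 the order was reversed, at 2856, 3311.5 and 2999 with one and 2700, 2597 and 2535.5 without. These TN medians rest on 9, 6 and 7 cells with a Rag transcript. The number of cycle genes is itself a count of detected genes, and the part these differences have in the correlations was not tested.

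Lists around the recombination reaction are given by counts and medians. With 0.0932% of all genes called higher and 0.11% lower, a list of this size with no call is near the background. The median log2 fold change over all genes tested was 0.014. Of 11 accessory end-joining genes none was called and their median was 0.32. Among them Cyren, an inhibitor of Ku, was dominated by chip 2 (11.7, 98.9 and 5.93 CPM in TN). None of 6 RAG cofactors was called (median -0.11), with Skp2, which targets RAG2 protein, at a log2 fold change of -0.81 ± 0.66 and Kpna2 at -0.29 ± 0.32.

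The lists of break signalling and other repair routes are given beside the same background of calls. Of 16 genes that sense and signal DNA breaks none was called (median -0.20). Atm, the kinase that answers breaks, averaged 101.4 ± 38.7 CPM over TN chips and 165.4 ± 29.3 CPM over Ly6D+ chips, and Paxip1 202.3 ± 41.5 and 106.6 ± 16.4 CPM (SD, n = 3 each), with adjusted p of 0.665 and 0.314 by edgeR. Of 9 genes of alternative end joining none was called (median -0.16), with Parp1 at a log2 fold change of 0.88 ± 0.27 and Polq, the polymerase of that pathway, at -1.92 ± 0.67. Of 12 genes of homologous recombination none was called (median -0.15), with Rad54l at -0.85 ± 0.44. None of 15 p53 targets was called (median 0.03). Pmaip1 and Cdkn1a, which encode the death factor NOXA and the cell cycle inhibitor p21, had log2 fold changes of -2.84 ± 0.72 and 1.06 ± 0.28 in opposite directions, and neither passed. None of 20 G2/M genes (median -0.24; Cenpe -0.57 ± 0.32, Ccnb2 -0.56 ± 0.31) and none of 20 G1/S genes (median -0.12; Rrm2 -0.59 ± 0.21, Cdc6 -0.90 ± 0.37) was called.

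**Figure D5:**
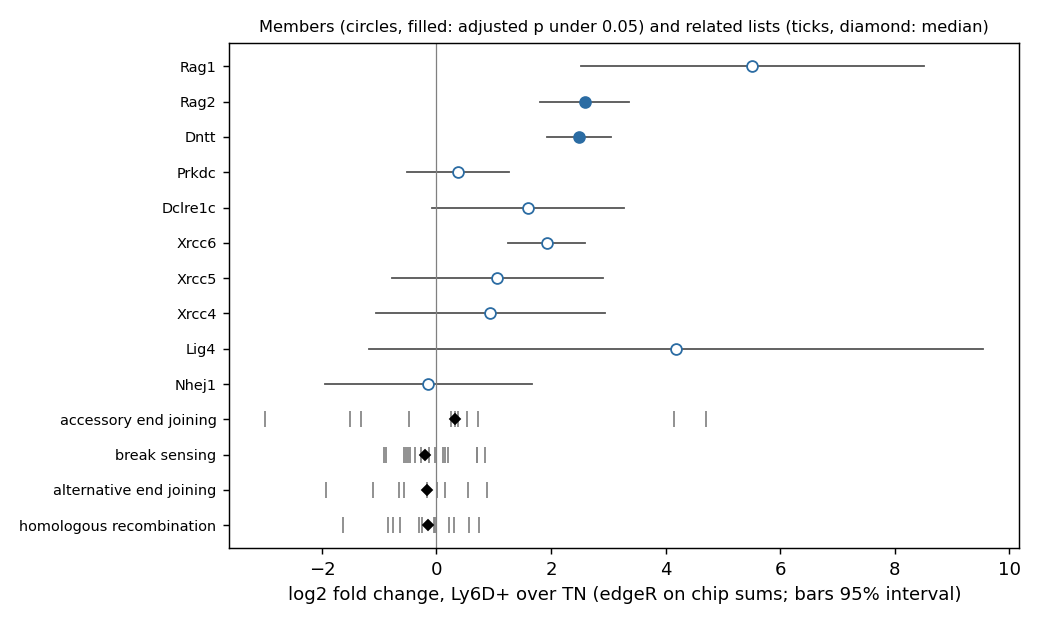
Log2 fold change, Ly6D+ over TN, of the 10 genes with 95% intervals (filled circles passed the edgeR threshold) and of the members of 4 related repair lists (ticks, with a diamond at the median). The intervals of Rag1, Rag2, Dntt and Xrcc6 lie above 0, and the medians of the 4 lists lie between -0.20 and 0.32.

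Regulators of the Rag locus and pre-B cell receptor genes had positive median fold changes, with few members called. Over all genes tested, 0.0932% were called higher and 0.11% lower. Among 20 tested regulators the median log2 fold change was 0.62, and 0 were called higher and 1 lower. That gene, Ikzf3, was listed at 20.5, 29.3 and 28.2 CPM on the TN chips, from 5 cells, and at 0 on all Ly6D+ chips. Foxp1, known to act on the Rag enhancer, averaged 484 ± 23.4 CPM over TN chips and 984 ± 154.1 CPM over Ly6D+ chips (SD, n = 3 each; log2 fold change 1.02 ± 0.18, SE; adjusted p = 0.0972 by edgeR). Of 9 pre-B cell receptor genes, Blnk, the adaptor downstream of the receptor, was called (72.7 ± 27.99 CPM against 458 ± 102.4 CPM; adjusted p = 0.0396), and the list's median was 3.52. Cd79b had a log2 fold change of 2.12 ± 0.40 and an adjusted p of 0.134 by edgeR. None of the 19 antigen receptor segment genes searched for was matched, and rearrangement itself was not analysed here.

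Markers of some other cell types also differed between the fractions. The summed level of plasmacytoid dendritic cell markers overlapped, at 2211 to 3214.5 CPM on TN chips and 1778.5 to 3164 CPM on Ly6D+ chips. Of the 11 tested there 0 were called, and 6 had a positive log2 fold change. Without overlap between chips, 2 were higher in Ly6D+ and 1 was lower, against 7.64% and 7.75% of all genes tested. Among these, Siglech averaged 45.35 CPM on TN chips and 144.4 CPM on Ly6D+ chips, and Irf8 1216 and 783 CPM. Of 11 tested myeloid markers 2 were called lower in Ly6D+, against 0.11% of all genes tested. Their summed level ran from 1625 to 3646 CPM on TN chips and from 77.4 to 409 CPM on Ly6D+ chips, with Cebpe at 0. Of 11 tested conventional dendritic markers 1 was called lower, with sums of 3680 to 6025 CPM on TN chips and 874 to 1505 CPM on Ly6D+ chips. Of 14 T and NK cell markers Cd3e, Ncr1 and Gzma had no read, and 0 of the 7 tested were called. The sums were 586 to 894 CPM on TN chips and 976 to 1248 CPM on Ly6D+ chips. Members of this list went in both directions. Lck averaged 170 CPM on TN chips and 603 CPM on Ly6D+ chips, and Gata3 80.2 and 20.3 CPM, both without overlap. Nkg7 averaged 264 and 374 CPM with overlapping chips. Of 10 erythroid markers 7 had no read. The part of a differing mixture of cells in the chip sums was not tested, and the within-fraction values above are given for that reason. Xist, the transcript of the inactive X chromosome, was detected in 41 cells, all on TN chip 2. Without these cells the log2 fold changes were 2.18 for Dntt (adjusted p = 0.0725), 2.94 for Rag2 (0.385), 4.25 for Rag1 (0.550) and 1.66 for Xrcc6 (0.275) by edgeR, so no call remained among the 10 genes. Between the chips with the closest run labels, TN chip 3 and Ly6D+ chip 4, the log2 differences were 3.16 for Dntt, 1.98 for Rag2, 8.49 for Rag1 and 2.58 for Xrcc6, with no test for 1 chip against 1.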

How the data were processed

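The authors deposited raw read counts per gene and cell from full-length cDNA of single cells (SMARTer on Fluidigm C1 chips, Nextera XT libraries, per the labels' protocols), without molecular identifiers or strand marking. The submitters' processing notes name the build mm9 and R 3.2.0. Aligner, counting program, annotation and doublet treatment: not given in the sources used here. Symbols came by identifier from RefSeq (GRCm38.p6) for 23334 of 23427 genes.

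Counts were summed per chip and tested with edgeR 4.0.16 (quasi-likelihood, TMM, filterByExpr) in R 4.3.3, with 3 chips per fraction as replicates. Which mice were loaded on which chip is not labelled. The p-values therefore reflect chip-to-chip spread only, and this may be technical. Confidence intervals are at 95%. CPM use TMM-scaled library sizes, and TPM use the deposited gene lengths. The limit for a count of 0 is 3 counts of the total, and limits and intervals on shares cover counting error only. Cells were thinned to 200000 reads (lowest cell 267852), and shares and mean levels per chip were compared by exact two-sided permutation (smallest p 0.1). Levels in positive cells were tested where every chip had 5 or more such cells.

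The genes and lists were chosen with earlier results of these data known. Named genes were the 10 genes, called list members and the 2 others with the lowest p per list, the 5 genes most correlated with Rag1, Rag2 and Dntt, neighbours within 500 bases, Polm and Poll, and fixed reference genes. Some genes that this rule names are not reported here. Alternatives were RLE and upper-quartile scaling, DESeq2 1.42.0, limma 3.58.1 (pseudocount 1), no filter, other detection limits, cells with no Desi1 read (added after seeing the data), each chip left out and subsets of cells. The edgeR step was tested on simulated data.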

Additional observations from a re-analysis of the deposited data

Results flagged for a closer look

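The relation of Xrcc6 to G1/S genes ran in opposite directions in the fractions. Xrcc6 correlated with the number of G1/S genes detected per cell at 0.27, 0.28 and 0.26 on the TN chips and at -0.40, -0.17 and -0.26 on the Ly6D+ chips. The mean rank correlations were 0.271 in TN and -0.275 in Ly6D+. The relation was flagged because all chips of 1 fraction had the opposite sign to all chips of the other. Values picked by that rule cannot overlap between the fractions. For the difference of -0.546 the exact two-sided permutation p over 3 against 3 chips was therefore fixed at 0.1. That is the smallest this design allows, so it does not pass a threshold of 0.05 and adds nothing to the rule. With G2/M genes Xrcc6 had both signs on the TN chips (0.10, -0.08 and 0.23). Negative G1/S correlations on each Ly6D+ chip were also found for Rag1 (-0.54, -0.31 and -0.35), Rag2 (-0.42, -0.16 and -0.13) and Dntt (-0.37, -0.19 and -0.20). Rag2 was positive on each TN chip (0.03, 0.13 and 0.06), but chip 2 had only 4 cells with it.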

How the results depend on the processing

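Over all genes, 24 were called, against 554 with DESeq2, 326 with limma, 7 without the cells with Xist, 8 with the first 40 cells per chip and 2 to 23 with 1 chip left out. Of the 10 genes, 2 were called higher, against 4 with DESeq2 and 4 with limma (Dntt, Rag1, Rag2 and Xrcc6), 3 without a low-count filter, 0 without the cells with Xist, 1 with the first 40 cells per chip and 0 to 1 with 1 chip left out. Over 14 settings the log2 fold changes ran from 2.18 to 2.74 for Dntt, 2.39 to 2.94 for Rag2, 4.25 to 7.37 for Rag1 and 1.64 to 2.11 for Xrcc6. These 14 settings leave out limma and the comparison of chips 3 and 4, which both gave values outside these ranges for all 4 genes. Limma, run on chip means of log2(CPM + 1), gave higher values for Dntt and Xrcc6 and lower values for Rag2 and Rag1. Between chips 3 and 4 the value was lower for Rag2 and higher for the other genes. All values left out were positive. The log2 fold change of Prkdc ran from -0.075 (without chip 5) to 0.68 with 1 chip left out and turned to -0.16 without cells of fewer than 1500 detected genes and -0.29 between chips 3 and 4, and that of Nhej1 ran from -0.79 to 0.28 (without chip 1; 0.21 without chip 5) and was 0.0053 with limma. Detection of Prkdc (Ly6D+ minus TN, percentage points) ran from -2.71 (without chip 6; -1.17 without chip 2) to 4.02 with 1 chip left out. That of Nhej1 ran from -1.97 to 1.94 (without chip 5; 1.85 without chip 1), and was 0.545 at 1 or more thinned reads and 0.229 without thinning. The mean share of Ly6D+ cells with Rag1, Rag2 and Dntt was 26.004% at 1 or more and 14.3% at 20 or more thinned reads, and with both Rag transcripts 27.4% and 14.9%. By Pearson correlation 3 of the 5 genes most like Dntt in Ly6D+ cells were shared. Apart from the effect of fewer samples or cells, the cause was not tested. No paired analysis was possible because each chip held 1 fraction and the groups share no chip number.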

Other observations

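Outside the rule for naming genes, and chosen after their values were seen, the genes with the lowest mean rank correlation within chips were looked up for the 4 leading genes. In Ly6D+ cells these were Fcer1g, the Fc receptor gamma chain of myeloid and dendritic cells, for Rag1 (-0.59) and Runx2, a transcription factor expressed in plasmacytoid dendritic cells, for Rag2 (-0.36). For Dntt and Xrcc6 in Ly6D+ cells they were dividing-cell genes, namely Racgap1 (-0.39), which acts in cytokinesis, and Fbxo5 (-0.42), an inhibitor of the anaphase-promoting complex. In TN cells the gene with the lowest correlation to Dntt was Ccr2 (-0.51), a chemokine receptor of myeloid cells, and that to Xrcc6 was Myh9 (-0.37), a myosin heavy chain. Each value is a description over cells that share chips and depth, with no test.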
